A study of Agaricus blazei with 33 samples.

Results

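The comparison described here is that of the pileus with the stipe of the fruit body of Agaricus blazei at the harvest stage. Its members are 6 of the 33 libraries of the deposited gene table, chosen by their column names, 3 of harvest pileus and 3 of harvest stipe. All 6 come from strain JA, a dikaryotic cultivar of this edible mushroom, with no treatment, transgene or mutation named in the labels. The rest of the series covers mycelia, primordia, whole fruit bodies, and the pileus and stipe of the button and maturation stages, each in 3 libraries of the same strain. RNA was sequenced on an Illumina platform and deposited as FPKM, the reads of a gene scaled to the length of the gene and to the size of the library. The reads were aligned to the assembly of JA-15036, a strain grown from a single spore of JA, so that the other nucleus of the dikaryon is not represented in the gene models. The labels do not say whether the 3 libraries of a tissue came from separate fruit bodies, and the p-values below therefore measure only the spread between libraries. In the main fit that spread is pooled over the 18 pileus and stipe libraries of 3 stages. Standard errors and p-values at harvest thus also carry the spread of the other stages.

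The pileus is the cap of the mushroom. It carries the gills, whose surface, the hymenium, bears the basidia, the cells in which the nuclei fuse, pass through meiosis and give rise to the spores. The stipe is the stalk, which lengthens mainly by the stretching of its cells and lifts the cap. Aerial fungal tissue is coated with hydrophobins, small secreted proteins that make the surface water-repellent, and its walls are built of chitin and glucans, which enzymes lay down, trim and loosen as cells grow. In these bulk samples, fewer cells of a type and less RNA per cell cannot be told apart.

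Reads recovered from the FPKM numbered 18003024, 16372071 and 15573864 in pileus 1, 2 and 3, and 16551970, 20736935 and 18566796 in stipe 1, 2 and 3. Across the genes, which are not independent replicates, each harvest library correlated with its own tissue at 0.970 to 0.983 and with the other tissue at 0.835 to 0.876. The harvest libraries thus followed their labels. Among the 12 libraries of the other stages used in the fit, button stipe 1 correlated better with button pileus (0.939) than with the other button stipes (0.925), and maturation pileus 3 better with maturation stipe (0.937) than with its own tissue (0.884). That pair also enters the pooled spread behind the standard errors and p-values at harvest. The main results that compare stages are given with and without that pair.

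Of the 9338 genes tested, 1558 were called higher in pileus (16.7%) and 1391 lower (14.9%). Calls needed an adjusted p under 0.05 (limma, Benjamini-Hochberg adjustment across the whole table) and a log2 fold change, pileus over stipe, with a size of 1 or more. All fold changes are on the log2(FPKM + 0.1) scale, which understates those of genes with few reads. The median over all genes tested was 0.01. A difference of at least 4-fold was found for 631 genes higher and 503 lower in pileus, and one of at least 16-fold for 78 and 87. The 3 libraries of the tissues did not overlap in 2916 of the 2949 called genes. Over all genes tested, every pileus library lay above every stipe library in 33.5%, and every stipe library above every pileus library in 32.7%. The table describes the Pfam domains of 892 of the genes higher in pileus and 806 of those lower. The balance of the directions depended on the scaling of the libraries. Scaling to the library totals in place of the size that the authors divided by gave 2302 genes higher and 937 lower, or 71.1% of the calls higher against 52.8%, and moved the median of all genes to 0.37. Under this and every other setting tried, 0 genes called in both fits changed direction. That is a weak check, as every fit used nearly the same harvest libraries and a call needs a size of 1 or more in each.

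**Figure D1:**
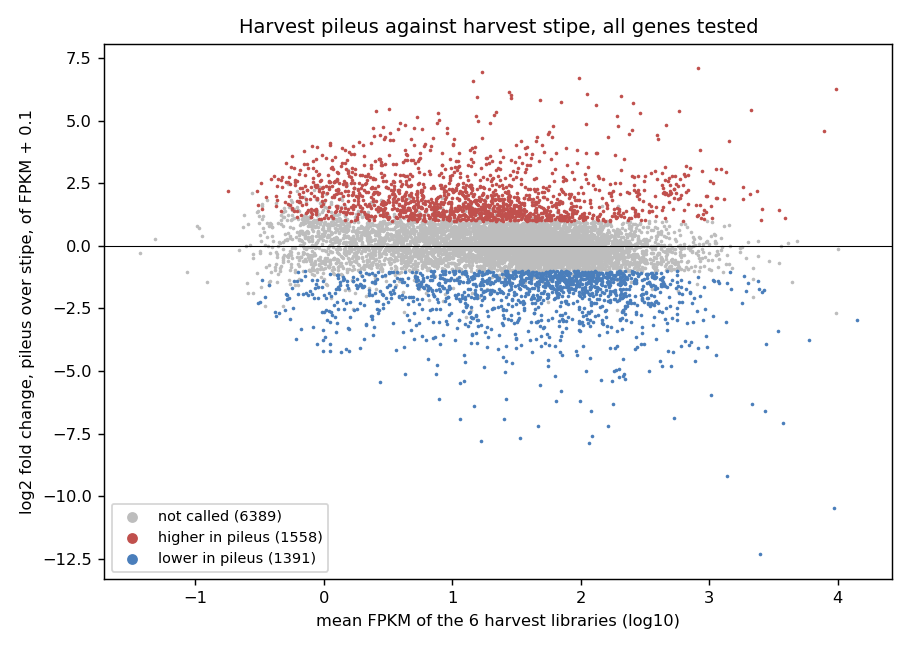
Each point is 1 of the 9338 genes tested, with the mean FPKM of the 6 harvest libraries (log10) on the horizontal axis and the log2 fold change, pileus over stipe, on the vertical axis. Red points are the 1558 genes called higher in pileus, blue points the 1391 called lower and grey points the rest; the lowest points, below -10, are the polysaccharide deacetylase A09042 and the hydrophobin A07658.

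The tissues used different hydrophobin genes. Of 14 tested hydrophobin genes, 2 were called higher in pileus and 6 lower, with a median of -1.04. A06219 (contig 2, 2097501 to 2098029) had an FPKM of 17997, 10739 and 28412 in pileus libraries 1, 2 and 3, against 112, 122 and 887 in stipe libraries 1, 2 and 3. All pileus values lay far above all stipe values, and stipe 3 stood above the other stipes. Its log2 fold change was 6.26 (standard error 1.41, adjusted p = 0.0024). In limma on the harvest libraries alone the adjusted p was 0.00059, and without button stipe 1 and maturation pileus 3 it was 3.6e-06. A07658 (contig 5, 525220 to 525657) was the reverse, with an FPKM of 10.4, 12.1 and 12.5 in pileus against 30225, 17843 and 8298 in stipe. The pileus libraries were close to each other, while the stipe libraries spread widely. The log2 fold change was -10.46 (standard error 1.14, adjusted p = 2e-05).

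A07658 is the first of a row of hydrophobin genes on contig 5. Its neighbour A07659 (528332 to 528786) had 0.13, 0.307 and 0.934 in pileus against 189, 56.7 and 29.0 FPKM in stipe (log2 fold change -7.21). The next gene, A07660, had 26.6, 18.1 and 40.8 in pileus against 1272, 822 and 276 FPKM in stipe (-4.61). In both, as in A07658, stipe 1 was the highest and stipe 3 the lowest of the stipes, and no pileus library reached a stipe library. A07644 on the same contig, A01532 and A04048 were also lower in pileus, with log2 fold changes of -2.93, -2.94 and -1.63, and A01017 was higher (2.22). The remaining 6 hydrophobin genes were not called, among them the abundant A08707, with 1027, 1356 and 1009 FPKM in pileus and 1002, 534 and 1705 in stipe, whose libraries overlapped. Summed over the family, hydrophobins took 0.809, 0.50 and 1.20% of the reads of pileus 1, 2 and 3, and 1.06, 0.625 and 0.402% of those of stipe 1, 2 and 3. The sums overlapped, so that the tissues differed in the members used and not clearly in the total.

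Other surface proteins also had genes in both directions. Of the 11 tested genes of the list of CFEM and anchored proteins, 1 was higher and 1 lower. Among 6 genes of the Ser-Thr-rich family of membrane proteins held by a glycosyl-phosphatidyl-inositol anchor, a sublist chosen after the values were seen, 2 were higher and 2 lower in pileus. A07675 (contig 5, 579975 to 580453) had 13901, 18522 and 11330 FPKM in pileus and 280, 374 and 1963 in stipe (log2 fold change 4.60, standard error 0.59, adjusted p = 6.9e-05). A06939 (contig 3, 1948218 to 1948766) had 554, 755 and 476 FPKM in pileus and 7632, 6045 and 5046 in stipe (-3.40, standard error 0.37, adjusted p = 2e-05). In neither gene did the tissues overlap. A08923 was higher (3.82) and A04383 lower (-1.85) in pileus.

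**Figure D2:**
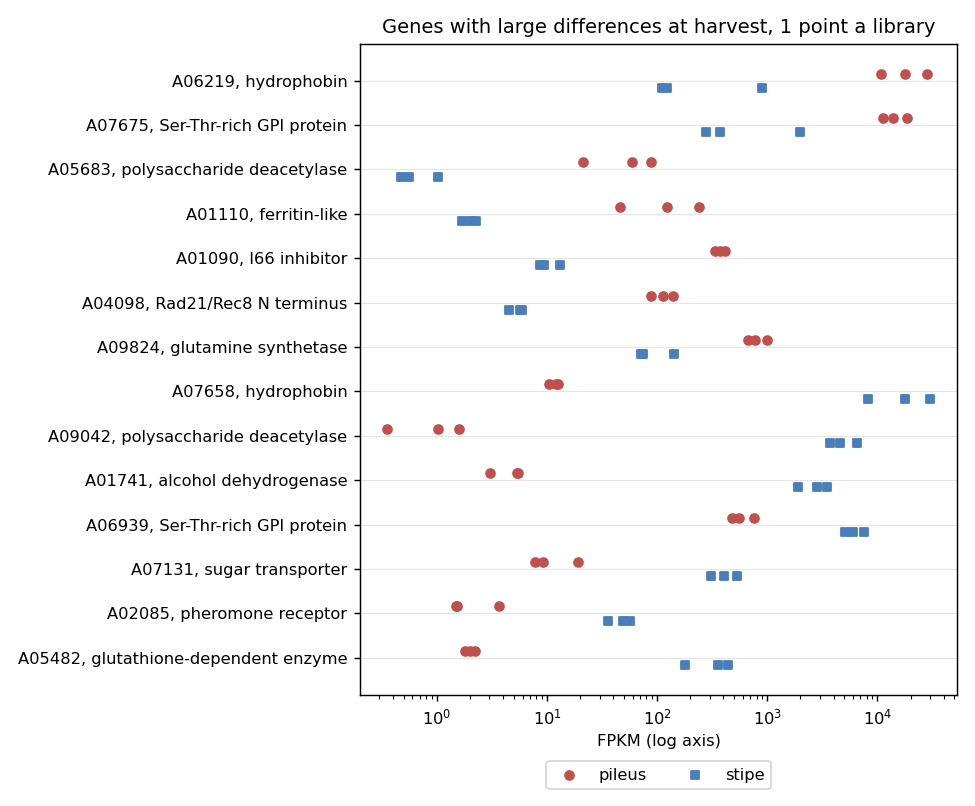
FPKM of 14 genes named in the text on a log axis, with 1 point for each of the 3 pileus libraries (red circles) and 3 stipe libraries (blue squares). In the upper 7 genes all pileus libraries lie above all stipe libraries and in the lower 7 below them; the hydrophobin A07658 spans 10.4 to 12.5 FPKM in pileus and 8298 to 30225 in stipe.

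Polysaccharide deacetylases, a family that includes the enzymes that take acetyl groups off chitin and so turn it into chitosan, held the widest single difference. A09042 (contig 7, 1868657 to 1870074) had 1.02, 0.353 and 1.58 FPKM in pileus against 6571, 3726 and 4608 in stipe, a log2 fold change of -12.32 (standard error 1.46, adjusted p = 4e-05). It was close to silent in every pileus library and among the abundant transcripts of every stipe library. A07388 was also lower in pileus (-4.10), with 7.66, 22.3 and 39.4 FPKM there and 244, 124 and 1155 in stipe. A05683 (contig 2, 691941 to 693617) went the other way, with 88.6, 21.2 and 59.6 FPKM in pileus against 0.472, 0.562 and 1.02 in stipe (6.01, standard error 0.73, adjusted p = 4.7e-05). The other 6 of the 9 tested deacetylases were not called.

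Of the enzymes that build the wall, few differed past the threshold. Of 11 tested chitin synthases, 2 were lower in pileus and 0 higher, A03208 (99.1, 116 and 86.8 FPKM in pileus, 293, 309 and 267 in stipe; log2 fold change -1.53) and A05650 (185, 200 and 163 in pileus, 642, 462 and 399 in stipe; -1.43). The median of the family was -0.27, but 0.09 with library totals, so that no direction of the family as a whole can be given. The list of glucan synthases held 20 tested genes, mostly of the SKN1 type, whose relatives in budding yeast take part in making 1,6-beta-glucan, and 2 of these were higher in pileus. A04463 had 16.7, 8.51 and 12.9 FPKM in pileus against 0.491, 1.05 and 0.880 in stipe (3.82). The catalytic 1,3-beta-glucan synthase A09123 had 87.3, 101 and 80.4 FPKM in pileus and 174, 150 and 149 in stipe, without overlap, but its log2 fold change of -0.82 (adjusted p = 0.0046) lay below the size required. The second synthase, A09827, had 40.4, 42.4 and 40.7 FPKM in pileus and 37.7, 36.5 and 42.4 in stipe, where the libraries overlapped.

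Enzymes and proteins that cut or loosen the wall were called in both directions. Of 21 tested genes for chitin-acting proteins, 4 were higher (19.0%) and 2 lower (9.5%) in pileus, against 16.7 and 14.9% of all genes. The chitinase-type A01765, of glycosyl hydrolase family 18, had 20.3, 41.8 and 11.2 FPKM in pileus against 502, 201 and 376 in stipe (log2 fold change -3.98), and A07139, of the same family with a PX domain, had 257, 132 and 263 in pileus against 45.9, 42.1 and 40.5 in stipe (2.27). The call of A07139 was lost on leaving out any harvest library but pileus 2 (adjusted p = 0.059 to 0.081). Its adjusted p was 0.00038 in limma on the harvest libraries alone, and 1.2e-06 without button stipe 1 and maturation pileus 3. Of 46 tested glycoside hydrolases of families that act on glucans, 7 were higher (15.2%) and 8 lower (17.4%), near the shares of all genes. Among 9 genes of the expansin-like and cerato-platanin kind, which include wall-loosening proteins, 3 were higher and 1 lower. That 1 gene, A07435 with a lytic transglycolase domain, was the most abundant of those called, at 240, 266 and 269 FPKM in pileus against 2021, 944 and 1765 in stipe (-2.54).

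Laccase-type oxidases of phenols, which in fungi take part in pigment formation, wall cross-linking and the breakdown of lignin, were called in both directions. Haem peroxidases, a separate list, were called only higher in pileus. Of 19 laccase-type multicopper oxidases, 6 were higher and 1 lower in pileus, against 16.7 and 14.9% of all genes, but 5 and 3 with quantile scaling and 7 and 3 without button stipe 1 and maturation pileus 3. Of 21 haem peroxidases 6 were higher and 0 lower. The list includes the 14 tested genes of Pfam peroxidase family 2, of which 3 were higher and 0 lower. A04923, the laccase-type gene with the highest level, had 1733, 1921 and 1730 FPKM in pileus against 275, 276 and 411 in stipe (log2 fold change 2.51). The peroxidase A08660, of that family 2, had 31.3, 20.8 and 31.0 FPKM in pileus and 2.26, 2.16 and 1.49 in stipe (3.74). In both genes the tissues were separate.

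Tyrosinases, the enzymes behind the browning of cut mushrooms, were few but abundant. Of 5 tested genes, A08292 was higher in pileus, with 45.5, 40.3 and 134 FPKM there and 4.71, 5.05 and 11.8 in stipe (log2 fold change 3.24), and A00406 was lower, with 558, 1150 and 293 in pileus and 1671, 1298 and 1596 in stipe (-1.40). The call of A00406 was lost without pileus 3 (-0.92, adjusted p = 0.101) and without stipe 1 (-1.33, adjusted p = 0.053). The most abundant, A02061, had 2363, 4004 and 1890 FPKM in pileus and 17631, 15675 and 16493 in stipe. Although its libraries did not overlap, its adjusted p was 0.099 and it was not called (log2 fold change -2.66). In limma on the harvest libraries alone the adjusted p was 0.0018, and without button stipe 1 and maturation pileus 3 it was 8.9e-05. Together the tyrosinases took 0.675, 1.09 and 0.566% of the reads of pileus 1, 2 and 3, and 3.15, 2.89 and 3.28% of those of stipe 1, 2 and 3.

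Genes of chromosome replication and meiosis were called higher in pileus in large part, and none were called lower. Of 37 tested genes of the DNA replication list, 25 were higher and 0 lower, against 16.7 and 14.9% of all genes, and their median was 1.37. In 35 of the 37 every pileus library lay above every stipe library, and in 2 every stipe library lay above every pileus library. PCNA, the sliding clamp of the replication fork (A01836), had 337, 395 and 372 FPKM in pileus against 140, 86.4 and 174 in stipe (1.52). Of 6 genes with the MCM domain of the replicative helicase, a sublist chosen after the values were seen, 5 were higher. They were led by A03744 with 91.2, 84.8 and 108 FPKM in pileus against 18.2, 12.4 and 26.1 in stipe (2.38). A03160, with the domain of Dna2, a nuclease and helicase that trims the fragments of the lagging strand, had 114.96, 44.1 and 77.2 FPKM in pileus against 10.1, 9.26 and 14.8 in stipe (2.70). Stipe 3 was the stipe nearest to pileus in 25 of the 37 genes, against 5135 of all 9338 genes tested. The list matches words of the description, and A04076, which also carries an aldose 1-epimerase domain, and A02168, with a domain of bacterial DNA polymerase III, are among the 25.

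The list of meiosis and recombination had 30 tested genes, of which 16 were higher in pileus and 0 lower (median 1.34). It also holds genes that act in mitotic cells, such as those of the SMC proteins, which fold and hold together chromosomes. A04098 (contig 1, 2623416 to 2626360), with the amino end of Rad21 or Rec8, the subunits that close the cohesin ring in mitosis and meiosis, had 113, 87.8 and 139 FPKM in pileus against 4.54, 5.96 and 5.67 in stipe (log2 fold change 4.36, standard error 0.80, adjusted p = 0.00068). The lowest pileus library was more than 10-fold above the highest stipe library. A01318, of the Mnd1 family, which in budding yeast takes part in the pairing of homologous DNA in meiosis, had 34.8, 18.3 and 27.4 in pileus against 1.29, 1.71 and 2.01 in stipe (3.90). Pileus 2 was the lowest pileus in both, as it was in 19 of the 30 genes of the list, against 3678 of all 9338 genes tested. A09411, with the domain of the Mnd1 partner Hop2 (1.36), a HORMA-domain gene predicted by StringTie (1.33), A03463 of the SPO22 and ZIP4 type (1.69), 3 MutS genes for mismatch recognition, A03929 (2.66), A08729 (2.31) and A08272 (2.04), and A08746 with the Mre11 domain of break repair (1.58) were likewise higher in pileus.

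Histones, the proteins around which DNA is wound, were also higher in pileus. Of 14 tested genes with a histone fold, a sublist put together after the values were seen, 11 were higher in pileus and 0 lower, with a median of 1.51. A08404 (contig 6), with the fold and the carboxy end of H2A, had 3997, 5809 and 5233 FPKM in pileus against 1988, 1191 and 2675 in stipe (log2 fold change 1.42, adjusted p = 0.0069). A02198 (contig 16), described by the histone fold of the centromere protein CENP-T, had 2647, 4253 and 4436 in pileus against 827, 439 and 1396 in stipe (2.21). Pileus 1 was the lowest pileus library in all 14 genes of the sublist, and stipe 3 the stipe nearest to pileus in 13. Over all 9338 genes tested, these libraries held those places in 2570 and 5135. The other 3 genes, A03344 (-0.53), A00414 (0.32) and A05832 (0.65), were not called. In the wider list of histones and chromatin, 28 of 93 genes were higher and 3 lower. In the list of cyclins, kinesins and tubulins, which also took in some of the genes above by their wording, 14 of 68 were higher and 6 lower. Higher were the kinesins A02471 (1.87) and A00043 (1.82) and the cyclin A03971 (1.36), and lower the tubulin A01138 (-1.14), the septin A06771 (-1.43) and the dynein light chain A07991 (-1.49).

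**Figure D3:**
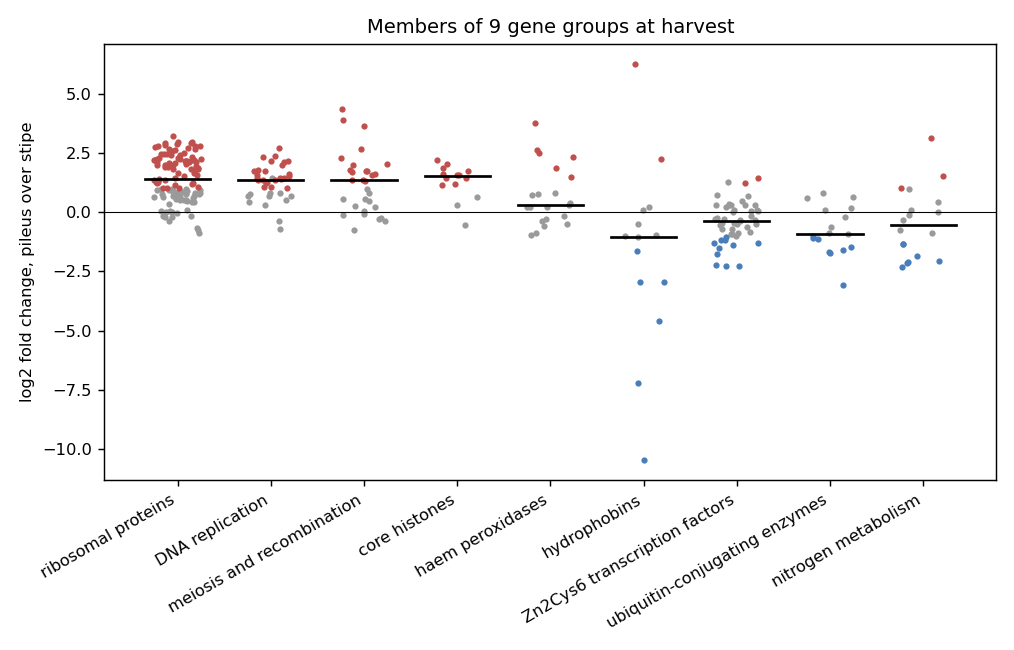
Each point is the log2 fold change, pileus over stipe, of 1 tested gene of 9 groups, in red if called higher in pileus, blue if called lower and grey if not called, and the black bar is the median of the group. The medians of the ribosomal proteins (1.38), DNA replication (1.37), meiosis and recombination (1.34) and core histones (1.51) lie above 1, and those of the hydrophobins (-1.04) and ubiquitin-conjugating enzymes (-0.92) below 0. The core histones and ubiquitin-conjugating enzymes are sublists chosen after the values were seen.

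Ribosomal proteins made up the largest single block. Of 116 tested genes, 70 were higher in pileus and 0 lower, against 16.7 and 14.9% of all genes. The median of the group was 1.38, or 1.75 with library totals. Every pileus library was above every stipe library in 100 of them. Reads on these genes were 4.51, 3.80 and 5.76% of those of pileus 1, 2 and 3, and 1.40, 1.19 and 1.49% of those of stipe 1, 2 and 3. Pileus 3 was the highest pileus library in 99 of the 116 genes, against 3135 of all 9338 genes tested. The block thus moved together within the pileus as well. A02213, of the L7Ae and L30e family, had 1106, 912 and 1544 FPKM in pileus against 147, 87.7 and 155 in stipe (3.20, standard error 0.52, adjusted p = 0.00029). The acidic ribosomal protein A07979 had 2122, 2023 and 3048 in pileus against 337, 235 and 355 in stipe (2.95). Of 33 ribosome assembly genes, 6 were higher (18.2%, near the share of all genes) and 0 lower. With library totals 14 were higher and 0 lower, where 2302 of all 9338 genes were higher. Of 84 translation factors and tRNA synthetases 8 were higher (9.5%) and 10 lower (11.9%), both below the shares of all genes.

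**Figure D4:**
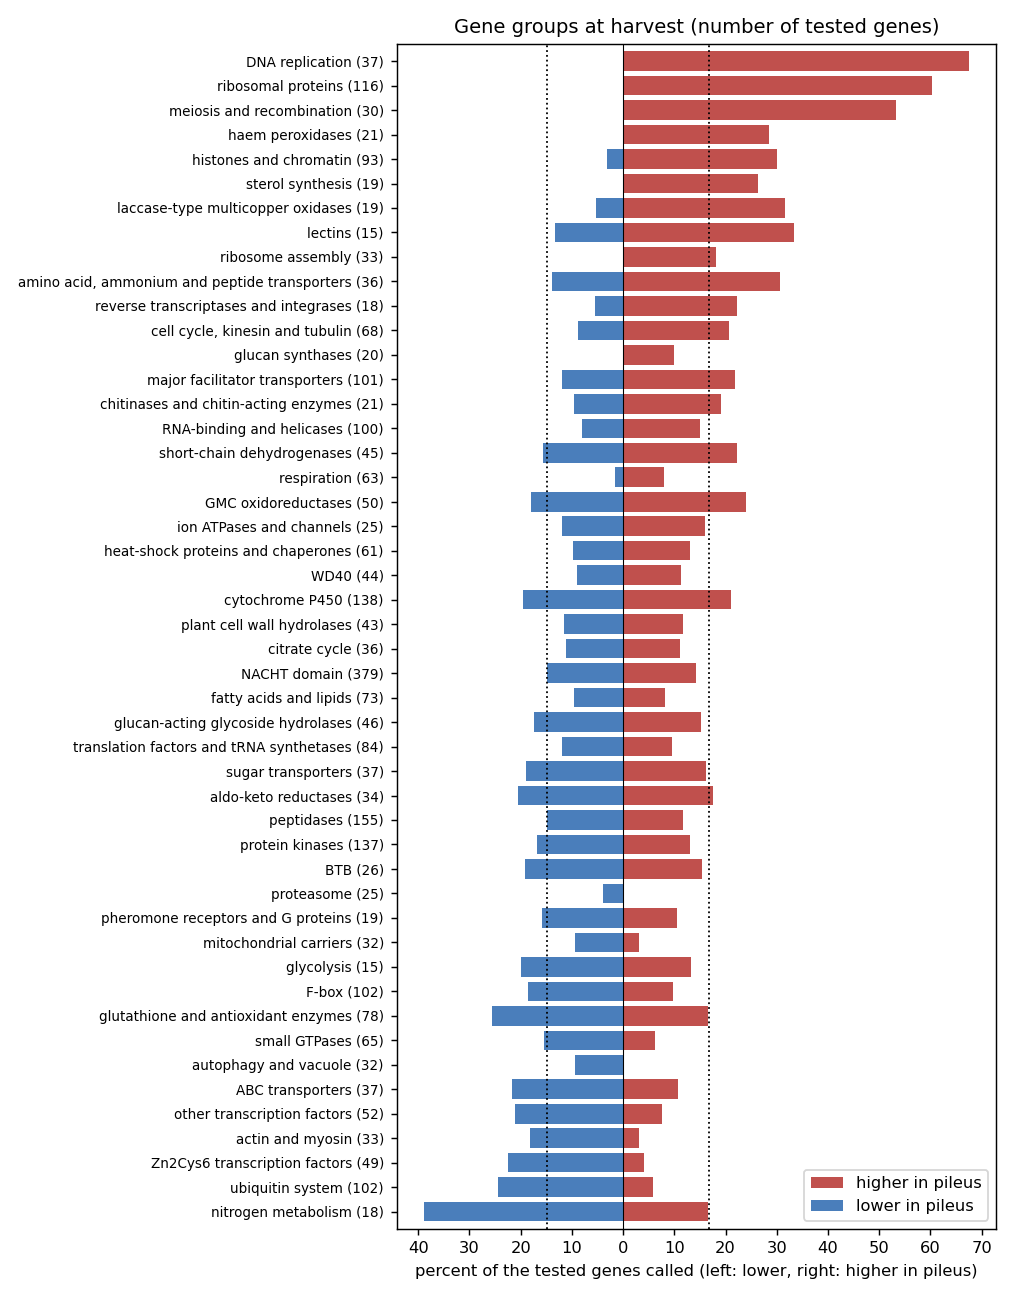
Bars give the percent of the tested genes of each group that were called higher (red, to the right) and lower (blue, to the left) in pileus, for the word lists with at least 15 tested genes, the number of which is in brackets. The dotted lines mark the 16.7% higher and 14.9% lower of all genes tested; DNA replication (25 of 37), ribosomal proteins (70 of 116) and meiosis and recombination (16 of 30) reach farthest to the right.

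Genes of nitrogen metabolism were more often lower in pileus than higher. Of 18 tested genes, 3 were higher in pileus (16.7%, as over all genes tested) and 7 lower (38.9%, against 14.9% of all genes). Glutamine synthetase, which fixes ammonium into glutamine, is encoded by genes that went in opposite directions. A09824 (contig 9, 601561 to 603217) had 768, 670 and 989 FPKM in pileus against 74.7, 71.5 and 141 in stipe (log2 fold change 3.13, standard error 0.43, adjusted p = 0.0001), and A06137 was also higher (1.52). A02857 was lower, with 35.9, 80 and 25.6 FPKM in pileus against 238, 185 and 133 in stipe (-2.10). The last steps of arginine synthesis were lower in pileus. Argininosuccinate synthase (A02256, contig 16, 320193 to 321987) had 105, 135 and 122 FPKM in pileus against 575, 602 and 612 in stipe (-2.31, standard error 0.22, adjusted p = 7.9e-06), with a narrow spread in both tissues, and argininosuccinate lyase (A09761) had 93.1, 118 and 96.2 against 301, 276 and 206 (-1.34). The NAD-glutamate dehydrogenase A06873, which releases ammonium from glutamate (-2.17), and an asparagine synthase gene, A09776 (-2.08), were lower in pileus too. The list also holds A09838, a peptide glycan hydrolase by its description, among the 3 that were higher.

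Transporters of amino acids and peptides were more often higher in pileus, 11 of 36 against 5 lower. Of 8 members of the OPT family of oligopeptide transporters, a sublist chosen after the values were seen, 4 were higher and 0 lower (median 1.16). They were led by A04406, with 48.5, 85.7 and 37.7 FPKM in pileus against 4.91, 2.90 and 16.2 in stipe (log2 fold change 3.11). A04472, of the proton-coupled POT family of peptide transporters, had 58.8, 64.5 and 65.7 in pileus against 5.65, 8.52 and 4.98 in stipe (3.32), with little spread in either tissue. The amino acid permease A05401 had 41.3, 21.1 and 30.2 in pileus against 0.297, 1.08 and 1.69 in stipe (4.98), and the permease A01207 was lower (-3.02). Of 37 tested genes in the list of sugar transporters, 6 were higher (16.2%) and 7 lower (18.9%), against 16.7 and 14.9% of all genes. A07131 had 7.79, 9.18 and 19.2 FPKM in pileus against 408, 535 and 309 in stipe (-5.18, standard error 0.83, adjusted p = 0.00029). A01900, the most abundant of those called, had 252, 816 and 68.1 in pileus against 1215, 2147 and 1852 in stipe (-2.81), with pileus 2 well above the other pilei. The ABC transporter A07043 had 2.08, 1.84 and 2.91 in pileus against 337, 159 and 214 in stipe (-6.59).

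Redox and detoxification enzymes included several of the widest differences. Of 32 tested zinc-binding alcohol dehydrogenases, a sublist chosen after the values were seen, 3 were higher in pileus and 8 lower. A01741 (contig 14, 523244 to 524786) had 5.32, 3.06 and 5.51 FPKM in pileus against 2842, 3466 and 1887 in stipe (log2 fold change -9.18, standard error 1.27, adjusted p = 0.00011). A08944 had 2.36, 2.12 and 2.47 in pileus against 151, 107 and 152 in stipe (-5.81). Both were low in all pileus libraries. A03077 had 9.65, 5.55 and 12.4 in pileus against 0.266, 0.459 and 0.379 in stipe (4.26). In the list of glutathione and antioxidant enzymes, 13 of 78 genes were higher and 20 lower (median -0.36), but 17 were higher and 14 lower with library totals, where the median was 0.00. The glutathione-dependent formaldehyde-activating enzyme A05482 had 1.79, 2.24 and 2.01 FPKM in pileus against 440, 180 and 357 in stipe (-7.18). The thioredoxin A03246, a small protein that reduces disulphides, had 71, 97.3 and 102 in pileus against 1730, 1798 and 1068 in stipe (-4.06), while another, A07746, was higher in pileus (3.48). The superoxide dismutase A09071 was abundant in both tissues and lower in pileus, at 1059, 1047 and 947 FPKM against 3660, 3411 and 1834 in stipe (-1.48).

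Cytochromes P450, a large family of monooxygenases, were called at 29 higher (21.0%) and 27 lower (19.6%) of 138 in pileus, with a median of 0.02. Over all genes tested the shares were 16.7 and 14.9%. The wide differences lay at single genes, such as A05467, with 7.08, 5.76 and 5.03 FPKM in pileus against 203, 496 and 142 in stipe (log2 fold change -5.34), and A06567, with 14.0, 12.8 and 25.8 in pileus against 0.321, 0.948 and 0.485 in stipe (4.72). A06566, an alcohol dehydrogenase that ends about 10 kb from A06567 on contig 3, was lower, with 0, 0.052 and 0.105 FPKM in pileus against 34.5, 28.9 and 5.24 in stipe. Of 19 genes of sterol synthesis, 5 were higher in pileus and 0 lower. They were A01153 of the ERG2 type (1.72), the squalene epoxidase A07666 (1.13), A07806 of the ERG4 and ERG24 family (1.25), A00678 with the Erg28 domain (1.24), all 4 named for steps of ergosterol synthesis in budding yeast, and A04711 (1.46), whose sterol-sensing domain belongs to its control.

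Lectins, proteins that bind sugars, and peptidase inhibitors are stored in many mushrooms. Of 15 tested lectin genes, 5 were higher in pileus and 2 lower. A04976 (contig 23), with a ricin-type domain, had 2606, 4535 and 2757 FPKM in pileus against 1127, 484 and 819 in stipe (log2 fold change 2.06), and A07014 (contig 3) 22.3, 6.31 and 18 in pileus against 0.223, 0.569 and 0.242 in stipe (5.04). The gene next to A04976, A04975, with the same kind of domain and that of a dehydrogenase, was lower in pileus, at 30.4, 18.3 and 30.8 FPKM there and 225, 260 and 88.3 in stipe (-2.74). Among 6 genes described as peptidase inhibitors of family I66, a sublist chosen after the values were seen, A01090 had 373, 333 and 410 FPKM in pileus against 8.68, 13.1 and 9.42 in stipe (5.17), and A00424 had 7.09, 29.6 and 24.1 in pileus against 493, 188 and 275 in stipe (-4.09). A01110 (contig 12, 1258531 to 1259490), with a ferritin-like domain, had 242, 46.1 and 124 FPKM in pileus against 2.04, 1.68 and 2.28 in stipe (5.74, standard error 0.73, adjusted p = 6.1e-05), with a 5-fold spread within the pileus.

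Among the groups of protein turnover, ubiquitin-conjugating enzymes, which carry ubiquitin to the proteins that are to be marked, had 8 of 17 genes lower in pileus and 0 higher (median -0.92). This sublist was chosen after the values were seen. Library totals gave 5 lower and 2 higher, with a median of -0.55. A04404 had 969, 1319 and 1052 FPKM in pileus against 4626, 4228 and 2447 in stipe (log2 fold change -1.72), and a gene predicted by StringTie on contig 4 (761859 to 764014) 18.9, 22.4 and 19.0 in pileus against 214, 161 and 143 in stipe (-3.08). In the whole list of the ubiquitin system 25 of 102 genes were lower and 6 higher, but 14 and 13 with library totals. Of 155 peptidases 18 were higher (11.6%) and 23 lower (14.8%), against 16.7 and 14.9% of all genes. Of 32 genes of autophagy and the vacuole 3 were lower and 0 higher. Atg8, the ubiquitin-like protein of autophagosomes (A04641), had 717, 888 and 862 FPKM in pileus against 4114, 2885 and 2030 in stipe (-1.82). Of 102 F-box genes, whose proteins choose targets for ubiquitin, 19 were lower and 10 higher, with 14 and 19 under library totals. A05178 among them had 0.136, 0.161 and 0.082 FPKM in pileus against 19.8, 14.1 and 12.6 in stipe (-6.10). Of 25 proteasome genes, A06670 (-1.24) was lower and 0 were higher, and its log2 fold change fell short of 1 in size with library totals (-0.88).

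Among regulators, 11 of 49 transcription factors of the fungal Zn2Cys6 class were lower in pileus and 2 higher (median -0.38), with 6 and 4 under library totals, where the median was -0.02. A00700 had 140, 178 and 91.6 FPKM in pileus against 679, 761 and 522 in stipe (log2 fold change -2.29). Of 52 other transcription factors, 11 were lower and 4 higher, and with library totals 6 and 5. The GATA factor A07594 had 74.5, 64.6 and 72.5 in pileus against 474, 596 and 340 in stipe (-2.70), and A05754, with the DNA-binding domain of heat shock factors, 516, 610 and 445 in pileus against 176, 118 and 244 in stipe (1.60). Homeobox genes were called in both directions, A06804 (2.15) and A03200 (1.14) higher, A01390 (-1.58) and A04224 (-1.20) lower. The mating-type receptor gene A02085, described as a pheromone A receptor, had 1.54, 3.64 and 1.48 FPKM in pileus against 48.6, 35.6 and 57.2 in stipe (-4.44). G-protein alpha subunits, which carry the signal of such receptors, went both ways, with A01884 lower (-3.69) and A02163 higher, at 288, 267 and 314 FPKM in pileus against 96.0, 117 and 103 in stipe (1.46). Of 137 protein kinases, 18 were higher (13.1%) and 23 lower (16.8%), against 16.7 and 14.9% of all genes.

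By Pfam family, the tested genes fell into 3072 families, of which 138 had at least 8 tested genes. In 12 of these at least 40% of the genes were called in one direction. Higher in pileus were the core histones (9 of 12), the OPT transporters (4 of 8), NUDIX hydrolases (4 of 10) and HMG boxes (4 of 10). So were genes that Pfam names enoyl-(acyl carrier protein) reductases (12 of 27), a name not checked gene by gene. Lower were the hydrophobins (6 of 14), ubiquitin-conjugating enzymes (8 of 17), GTPases of the 50S ribosome-binding kind (13 of 32), histidine kinase-type ATPases (4 of 8), 2OG-Fe(II) oxygenases (6 of 13), the non-haem dioxygenase domain found beside them (6 of 15) and alpha/beta hydrolases (4 of 10). Several of these were mixed, and the reductases also had 5 genes lower and the dioxygenases 3 and 4 genes higher. The largest family, the NACHT domain, had 54 genes higher and 56 lower of 379, near the background in both directions.

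Some genes next to each other on a contig were called together. Of 9309 pairs of neighbouring tested genes, both were higher in pileus in 402, both lower in 383, and 325 were called in opposite directions. Over all genes tested, 16.7% were called higher and 14.9% lower. Whether neighbours were called together more often than genes placed apart was not tested. The longest runs held 7 genes. On contig 15, from 1092727 to 1111277, A02062 to A02066 and 2 genes predicted by StringTie between them were lower, among them A02063, with 45.8, 53 and 42 FPKM in pileus against 570, 750 and 338 in stipe (log2 fold change -3.49), and the F-box gene A02064 (-3.24). On contig 17, from 633283 to 649243, A02602 to A02605 and 3 genes predicted by StringTie were higher, and A02602, A02603, A02604 and A02605 all carry a NACHT domain. The hydrophobin A06219 ended a run of 5 genes higher in pileus on contig 2, the others between 1.09 (A06217) and 2.39 (a gene predicted by StringTie). Class-I glutamine amidotransferase domains, which remove the amide group of glutamine, gave a counter-example on contig 10. There A00229 had 6.64, 35.1 and 3.98 FPKM in pileus against 348, 324 and 473 in stipe (-5.25), while its neighbour A00230 had 54.3, 51.9 and 532 in pileus against 2.16, 2.69 and 9.45 in stipe (4.87). A00242, on the same contig, had 1860, 2249 and 2405 in pileus against 325, 148 and 357 in stipe (3.06). Values of near-identical copies in such families are uncertain where reads align to several of them. The same holds for the 62 of the 2949 called genes that overlap another gene, as it is not known whether counting used the strand.

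Primers that the study used for quantitative PCR in other stages could be read for 31 genes, all of which were tested here. Of these, 20 were called between harvest pileus and stipe with no overlap of the tissues, against 2916 of all 9338 genes tested. The primers of the 2 genes most higher and the 2 most lower in pileus are shown, chosen after the values were seen. The study reports no PCR of pileus or stipe, and how these oligonucleotides would report the tissue difference was not tested. They are written 5′ to 3′ in lower case, forward and then reverse.
A07611 forward: tcattgcggcattgcttta
A07611 reverse: catttcgggttggttgttg
A04850 forward: cattagatgcccagaacgacc
A04850 reverse: tctgagtggtttgattggagg
A02364 forward: gcacggtgttcaatgtcctc
A02364 reverse: actgcgtcggcaagaaatac
A05199 forward: acgcctaccctcgttcaga
A05199 reverse: gcaagtaagcaacagcaccc
None of the 4 genes has a Pfam description. A07611 (contig 5, 399196 to 399807) had 214, 198 and 160 FPKM in pileus against 1.39, 0.912 and 4.04 in stipe (log2 fold change 6.69, adjusted p = 5.1e-05). A04850, which ends the run of contig 22 that starts with the fatty acid desaturase A04847, had 37.2, 66.9 and 56.1 in pileus against 0.221, 0.170 and 4.68 in stipe (6.12). A02364 had 1.10, 2.59 and 0.939 in pileus against 50, 37.8 and 61.2 in stipe (-5.03), and A05199 had 0.266, 1.42 and 0.959 in pileus against 17.6, 22.6 and 4.93 in stipe (-3.91). The tissues did not overlap in any of the 4 genes.

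Whether the harvest difference is that of the neighbouring stages was tested with contrasts of the tissue differences in the same fit. The harvest difference was more positive than that of the button stage in 131 genes (1.4%) and more negative in 144 (1.54%). Against the maturation stage it was more positive in 241 genes (2.58%) and more negative in 291 (3.12%). The counts depended on the fit. With the replicate block, 58 genes were more positive than in the button stage, and without button pileus 2 only 23. The counts were higher on leaving out button stipe 1 and maturation pileus 3, the libraries nearer to the other tissue, at 738 and 469 against the button stage and 678 and 960 against maturation. This setting was chosen after the data were seen. Without that pair, 1283 genes were higher in button pileus than button stipe (13.7%) and 1468 lower (15.7%), and 1895 were higher in maturation pileus than maturation stipe (20.3%) and 1694 lower (18.1%). Of the 1693 genes higher in harvest pileus in that fit, 940 were also higher in the button stage (55.5% of the harvest genes and 73.3% of the button genes) and 1194 in the maturation stage (70.5 and 63.0%). All 3 stages shared 692 of the genes higher in pileus and 662 of the 1482 lower, and 251 and 250 were called at harvest alone. With all 18 libraries the 3 stages shared 372 and 329.

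Within the meiosis list the stages differed from gene to gene. A01318 (Mnd1) had 1.84, 0.844 and 2.01 FPKM in button pileus against 1.70, 0.579 and 1.34 in button stipe, and 104, 102 and 12 in maturation pileus against 1.31, 1.17 and 1.08 in maturation stipe. The tissues overlapped in the button stage and not in the others, and the third of the maturation pileus libraries is the one that correlates with stipe. The tissue difference of A01318 at harvest was beyond that of the button stage with all libraries (log2 difference 3.52, adjusted p = 0.047) and without the pair (3.23, adjusted p = 0.00095). By contrast A04098 (Rad21 or Rec8) was higher in pileus without the pair by 4.59 in the button stage and 4.69 in maturation, values close to the 4.36 of harvest. In the list as a whole, 8 genes were higher in button pileus, 16 at harvest and 19 at maturation, without the pair and with 0 lower in each. Ribosomal proteins were called higher in pileus at each stage without the pair, in 79, 70 and 81 of 116 genes at the button, harvest and maturation stages, with 0, 0 and 2 lower.

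The levels of several named surface and metabolic genes differed between harvest and at least one neighbouring stage. The hydrophobin A07658 had 17.7, 1438 and 590 FPKM in button stipe and 1845, 2603 and 1134 in maturation stipe, below all 3 harvest stipe libraries, and 11.5, 12.9 and 15.6 in button pileus. The deacetylase A05683 had 0.685, 0.616 and 1.12 in button pileus against 0.455, 0.517 and 0.383 in button stipe, and 1334, 1015 and 102 in maturation pileus against 1.58, 1.48 and 1.36 in maturation stipe. The harvest pileus lay between the other stages. A07675 had 58.7, 176 and 67.6 FPKM in maturation pileus against 114.8, 107 and 112 in maturation stipe, where the libraries overlapped, after 15107, 16604 and 13913 in button pileus against 3822, 1677 and 1461 in button stipe. A06939 had 466, 256 and 212 FPKM in button pileus against 2751, 5610 and 3088 in button stipe, so that the excess in stipe was already there (difference between the stages 0.23, adjusted p = 0.82). The maturation pileus had 6817, 6971 and 10980 FPKM against 5060, 3776 and 6838 in maturation stipe, and there the excess in stipe was not seen (difference between the stages -4.06, adjusted p = 0.0007, and -3.84, adjusted p = 0.00013, without the pair). Argininosuccinate synthase (A02256) had 134, 123 and 96.7 in button pileus against 110, 159 and 135 in button stipe, and 233, 236 and 433 in maturation pileus against 415, 481 and 379 in maturation stipe. Its tissue difference at harvest was beyond that of the button stage (-2.12, adjusted p = 0.0035) and that of maturation (-1.76, adjusted p = 0.0048), and without the pair by -1.98 and -1.46.

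**Figure D5:**
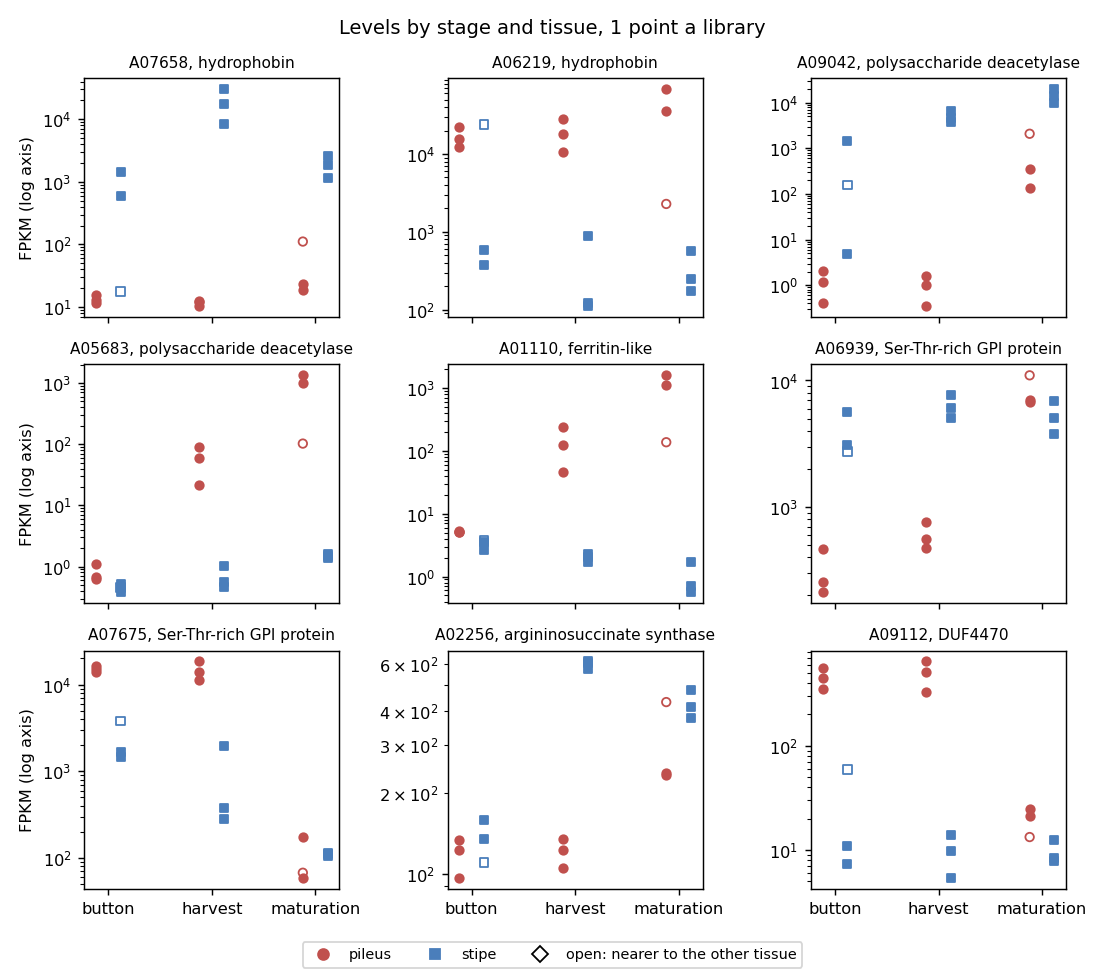
FPKM on a log axis of 9 genes in the pileus (red circles) and stipe (blue squares) of the button, harvest and maturation stages, 1 point for each library, with open symbols for button stipe 1 and maturation pileus 3, which correlate better with the other tissue. A07658 is highest in the harvest stipe (8298 to 30225 FPKM), and A05683 and A01110 are higher in harvest pileus than in button pileus and highest in maturation pileus.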

How the data were processed

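The authors trimmed and filtered the reads, mapped them with Hisat2, predicted further genes with StringTie and counted reads per gene with featureCounts (1.5.0-p3, per the submitters' processing notes). The deposited values are FPKM for 10337 genes on 33 contigs, 8185 predicted by Augustus and 2152 by StringTie, of which 6116 have Pfam descriptions. Not given in the sources used here are the strand setting, how reads with several alignments were treated, and the FPKM formula. FPKM times gene length gave whole reads for 100% of values within 1e-06. In harvest pileus the library size within the FPKM exceeded these reads 1.14 to 1.22 times, while in harvest stipe it was 0.876 to 0.959 of them, which shows that the authors scaled each library. Depth was 15573864 to 20736935 reads per harvest library. The number of libraries, 3 per tissue, limits the precision.

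The model was fitted to log2(FPKM + 0.1) of the 18 pileus and stipe libraries of 3 stages, using limma 3.58.1 (R 4.3.3) and a prior variance that follows the mean. Genes entered at a mean of 0.5 FPKM or more. P-values were adjusted over all genes tested by the method of Benjamini and Hochberg. Genes were grouped by 60 word lists over the Pfam descriptions, which catch some genes by wording alone. Lists are described by counts and medians, with no set test. The members and lists were chosen with earlier results of these data known. Named genes are the 6 largest rises and 6 largest falls among called genes that have a description, show no overlap of the tissues and reach a mean of 10 FPKM in the higher tissue, the 5 largest differences of mean FPKM in each direction, the extreme gene of each list in each direction, and the 3 largest changes in each direction of each stage contrast. Other genes were named after their values were seen. The settings varied were the pseudocount (1 and 0.01), no filter and a filter at 5, scaling (library totals, quantile, median-ratio), all 33 libraries, no trend, the harvest libraries only, a replicate block, voom on the recovered reads and each library left out. The fit without button stipe 1 and maturation pileus 3 was added after the data were seen. The scripts were tested on simulated data.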

Additional observations from a re-analysis of the deposited data

Results flagged for a closer look

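For 36 of the genes named by the rule, the tissue difference at harvest differed from that of a neighbouring stage by the limma contrast of the differences itself. Values are log2 differences, harvest minus the other stage, in the fit of all 18 libraries. Of the 36 genes, 12 were named for the size of their stage contrast. The others were named for the size of their harvest difference, which is itself part of each contrast. The number of genes is therefore not a finding. Without button stipe 1 and maturation pileus 3, all 38 contrasts of these genes were called in the same direction, with sizes that changed, such as -4.34 in place of -6.24 for A07658.

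Against the button stage, the difference was more positive for the deacetylase A05683 (5.33), the ferritin-like A01110 (5.09), an RNA-binding StringTie gene (contig 10, 725778 to 727895; 5.54), the heat shock factor type A05754 (1.52), and A08490 (5.89), A03382 (5.73) and A03674 (5.70), which have no description. A05754 had 516, 610 and 445 FPKM in harvest pileus against 176, 118 and 244 in harvest stipe, and 524, 553 and 454 in button pileus against 501, 450 and 502 in button stipe. The difference was more negative for the hydrophobin A07658 (-6.24), the major facilitators A09038 (-3.53) and A08338 (-6.00), the F-box gene A05178 (-5.65), argininosuccinate synthase A02256 (-2.12), the RNA-binding A03134 (-3.68), and a StringTie gene with no description (contig 3, 72647 to 73744; -6.56). A05178 had 0.237, 0.203 and 0.336 FPKM in button pileus and 0.299, 0.553 and 0.336 in button stipe, so that its excess in stipe was seen at harvest and, at 20.0, 21.6 and 14.4 FPKM, in maturation stipe.

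Against the maturation stage, the difference was more positive for A09112, with the DUF4470 domain (4.68), A07675 (4.92), the cytochrome P450 A06567 (2.63), the desaturase A04847 (3.38), A02196 (6.21), and StringTie genes with no description (contig 7, 1713778 to 1715580; 5.58) and (contig 16, 88146 to 90307; 5.39). A09112 had 513, 328 and 647 FPKM in harvest pileus against 5.38, 14.0 and 9.87 in harvest stipe, and 21.4, 24.7 and 13.3 in maturation pileus against 8.31, 7.92 and 12.5 in maturation stipe. The difference was more negative for the surface and wall genes A09042 (-7.40), A06939 (-4.06), A03208 (-1.39) and a StringTie gene with a CFEM domain (contig 18, 46302 to 47236; -4.07), the multicopper oxidases A03363 (-4.78) and A00941 (-5.91), the ferritin-like A01110 (-3.58) and A00909 (-2.72), the P450 A05467 (-3.77), the short-chain dehydrogenase A01072 (-2.20), A02256 (-1.76), the Hsp20 chaperone A07792 (-4.88), the dynein light chain A07991 (-2.02), the mitochondrial carrier A08526 (-1.28), and StringTie genes with the UNC-93 domain (contig 1, 1266969 to 1269761; -2.02), the ubiquitin-conjugating domain (contig 4, 761859 to 764014; -1.96) and an F-box (contig 6, 1434778 to 1436258; -6.34). A03363 had 833, 835 and 162 FPKM in maturation pileus against 1.94, 1.81 and 2.27 in maturation stipe. A00941 was not called at harvest itself (-1.53, adjusted p = 0.088), but was called in 4 other settings, with an adjusted p of 0.0012 without that pair, 0.012 and 0.013 with the harvest libraries only, without and with the block, and 0.040 with quantile scaling. Maturation pileus 3, which correlates better with the stipe, is part of each of these values.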

How the results depend on the processing

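Of 125 named genes 124 were called at harvest, and 108 kept their call and direction in all 20 other settings, with 0 reversed. The median-ratio factors were 0.994 to 1.011, so that this setting hardly differed from the main fit. The calls lost most often were those of the glycosidase A06159 and the phosphoglucose isomerase A01081 (9 settings each) and of the abundant StringTie gene of contig 14 from 246480 to 247356 (8). The count of calls at harvest, 2949, moved by less than 1.5 times in every setting, with 2513 to 3161 on leaving out a harvest library (1299 to 1638 higher, 1214 to 1523 lower). The library totals changed its balance, as given above, and a filter at 5 gave 1088 higher and 1211 lower. Equal replicate numbers gave correlations of deviations of -0.03, -0.01 and 0.07 between the tissues, and unequal ones -0.09 to 0.14. With 3 libraries a tissue this cannot tell whether equal numbers share a fruit body. The replicate block gave 1535 higher and 1393 lower. The stage contrasts were less stable. Against the button stage, 275 genes were called, but 843 in a fit of only the stages compared, 164 with the replicate block, 1207 without button stipe 1 and maturation pileus 3, and 65 to 437 with single libraries left out. Positive ones were 131, but 478, 58, 738 and 23 to 252 in the same order, and negative ones 144, but 365 with only the stages compared, 469 without the pair and 42 to 202 with single libraries left out. Against maturation, 532 were called, but 353 with only the stages compared, 329 with the replicate block, 1638 without the pair and 287 to 1334 with single libraries left out. Positive ones were 241, but 147 with a filter at 5, 447 with library totals, 158 with only the stages compared, 132 with the block, 678 without the pair and 125 to 550 with single libraries left out, and negative ones 291, but 155 with library totals, 960 without the pair and 159 to 784. Of single libraries, button stipe 1 (437 and 252), harvest stipe 3 (202) and maturation pileus 3 (1334, 550 and 784) gave the highest counts when left out, and button pileus 2 (65, 23 and 42), harvest pileus 3 (287 and 125) and maturation stipe 2 (159) the lowest. The cause was not tested. With 3 libraries a tissue, small differences can go uncalled.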

Other observations

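Genes of carbon stores and other housekeeping groups were called in part, against 16.7% higher and 14.9% lower of all genes tested. Glycolysis, at 13.3 and 20.0%, lay near these shares, and respiration, at 7.9 and 1.6%, lay below them. Of 15 glycolysis genes 2 were higher in harvest pileus and 3 lower, among them the hexokinase A08692, which starts glycolysis, with 84.0, 82.3 and 79.4 FPKM in pileus against 199, 210 and 143 in stipe (log2 fold change -1.15, but -0.78 with library totals). Of 6 genes of trehalose and mannitol metabolism 2 were lower and 0 higher, one of them the trehalose synthesis gene A07406 (42.0, 64.4 and 40.5 FPKM in pileus, 112, 177 and 147 in stipe; -1.57). Of 63 respiration genes 5 were higher and 1 lower. Of 33 actin and myosin genes 6 were lower and 1 higher, but 3 and 3 with library totals, and the actin A02796 had 607, 664 and 522 FPKM in pileus against 1736, 1768 and 1161 in stipe (-1.36).

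Some of the largest differences in level were at genes with no description. A10021 (contig 9, 1309853 to 1310317) had 3975, 2898 and 5420 FPKM in pileus against 89.3, 110 and 83.4 in stipe (log2 fold change 5.41), and A06991 (contig 3, 39974 to 40787) 26.6, 238 and 25.7 in pileus against 8645, 6882 and 6437 in stipe (-7.05). A StringTie gene (contig 14, 246480 to 247356) had 3629, 12625 and 512 in pileus against 22382, 23613 and 21175 in stipe (-2.97, adjusted p = 0.042). Its pileus libraries spread over more than 20-fold, and it was not called on leaving out any harvest library but pileus 2, with an adjusted p of 0.229 (-1.72) without pileus 3.

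The libraries of a tissue were not equally far from the other tissue. Among the 1558 genes higher in pileus, pileus 2 was the pileus library nearest to stipe in 65.2% and stipe 3 the stipe library nearest to pileus in 61.6%. Among the 1391 lower, the same libraries were nearest in 56.2 and 69.2%. Leaving out pileus 2 gave 1542 higher and 1383 lower genes, and leaving out stipe 3 gave 1638 and 1523.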
